A study of Mus musculus with 22 samples.

Results

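The 6 genes Fos, Fosb, Fosl2, Jun, Junb and Jund encode the subunits of activator protein 1 (AP-1) that were followed here, and were chosen by name from the 20668 genes of a single-nucleus RNA-seq (snRNA-seq) table and the 16304 genes of a single-cell RNA-seq (scRNA-seq) table of mouse hypothalamus. All mice were male ob/ob animals, which lack leptin and are obese and diabetic, 11 weeks old. Each received a single intracerebroventricular (icv) injection of recombinant human fibroblast growth factor 1 (FGF1, 3 µg) in phosphate-buffered saline (PBS), or PBS alone as vehicle, and vehicle mice were pair-fed to the FGF1 mice. Nuclei came from 3 FGF1 and 3 vehicle mice on Day 1, 24 h after injection, and from 2 FGF1 and 2 vehicle mice on Day 5. The whole-cell mice, 6 given FGF1 and 6 given vehicle, were a further cohort taken on Day 5, from another supplier (Janvier, against Jackson for the nuclei), fed another chow and dissected to a smaller triangular block, and neurons had been removed from their cells. No deletion or reporter beyond the Lep mutation is given, and the mutation is shared by every group.

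AP-1 is a dimer of basic leucine zipper proteins. Fos proteins dimerize only with a partner such as a Jun protein, whereas Jun proteins also pair with each other, and the dimer binds short DNA sites in promoters and enhancers. Growth factors such as FGF1 act through receptor tyrosine kinases and the MAP kinases to induce Fos, Fosb, Jun and Junb within minutes as immediate early genes, while Jund is present in most resting cells. In brain tissue the same genes are also known to be induced by cutting, warming and enzymatic digestion, so nuclei taken from frozen tissue and cells dissociated with warm enzymes were compared directly.

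Levels are given as CPM, the unique molecular identifiers (UMIs) of a gene per 1000000 UMIs of 1 mouse and 1 cell type, and counts as UMIs. Nuclei carried the deposited cell type names, and the marker genes of astrocytes (Astro, 6 of 6 markers), ependymal cells (Epend, 5 of 5), oligodendrocytes (Olig, 6 of 6), committed oligodendrocyte precursors (COP, 5 of 5) and microglia (Micro, 4 of 5) were found in the types so named, while tanycytes (Tany), the glia of the ventricle floor, carried 4 of 6 tanycyte markers. Tany and Epend also passed 6 of 6 astrocyte markers, and COP passed 4 of 6 oligodendrocyte and 3 of 5 oligodendrocyte precursor markers. Libraries held 2721087 to 16345981 UMIs over 591 to 5768 nuclei, and 2652897 to 11866269 UMIs over 1967 to 7926 cells, with median depths of 2029 to 3986 UMIs per nucleus and 1118 to 2090 UMIs per cell. Of 24645 barcode sequences among nuclei, 318 occurred in several libraries, as did 1791 of 53065 among cells. Neuronal marker RNA was found in glial nuclei. The 5 neuron markers summed to 3408 CPM in Olig, 3484 CPM in Micro and 2868 CPM in COP, near their level in all other nuclei. They summed to 1278 CPM in Astro, 745.5 CPM in Tany and 507.3 CPM in Epend. Whether this was RNA carried over between nuclei, doublets or mixed types was not tested. Levels of a few CPM in Olig, Micro and COP nuclei were read as background.

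The genes lie on 5 chromosomes of the mouse genome GRCm38. Fos (chr12:85473890-85477273, plus strand), Fosb (chr7:19302696-19310051, minus strand) and Fosl2 (chr5:32135801-32157842, plus strand) each have 4 exons, with 1276, 3574 and 15505 intronic bases that could add to counts in nuclei, where introns were counted. Jun (chr4:95049034-95052222, minus strand), Junb (chr8:84974484-84978718, minus strand) and Jund (chr8:70698949-70700616, plus strand) have a single exon. Jun overlaps the antisense gene Junos, the annotated Junb span overlaps Prdx2 and Jund overlaps Gm11175, all on the opposite strand. Whether reads were counted by strand is not given in the sources used here, so counts of these 3 genes could include reads of the gene opposite.

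The promoters of Jun, Fos and Junb are shown because these genes gave the Day 1 results. Capitals mark TGACATCA, the variant AP-1 site known from the Jun promoter, and TGACG, the core of the cAMP response element TGACGTCA. Sequences are RefSeq promoters of GRCm38.p6, 5′ to 3′ on the strand of the gene, with 30 flanking bases, covering bases -75 to -8 from the start of Jun (chr4:95052230-95052297, minus strand), -96 to -32 of Fos (chr12:85473794-85473858, plus strand) and -136 to -72 of Junb (chr8:84978820-84978884, minus strand).
Jun: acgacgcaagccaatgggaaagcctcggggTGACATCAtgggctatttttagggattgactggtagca
Fos: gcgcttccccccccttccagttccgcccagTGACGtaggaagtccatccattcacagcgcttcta
Junb: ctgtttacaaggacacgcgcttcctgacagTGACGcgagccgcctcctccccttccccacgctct
On either strand of the 250 bases before the start, TGACATCA stood at bases -45 to -38 of Jun and occurs in 2.93% of 32851 promoters. TGACG stood at -129 and -66 in Fos, -60 in Fosb and -106 in Junb, and occurs in 17.8% of promoters, counting those with TGACGTCA, which contains it (1.55%). TGACTCA, the consensus AP-1 site (4.46% of promoters), TGACGTCA and the CArG box bound by serum response factor (1.47%) were in none of the 6 windows, and TATAAA (12.4%) was at -33 of Fos. None of these letters was found in the Fosl2 and Jund windows. Windows were counted from the RefSeq starts, which for Jund, Fosl2, Fosb and Junb lie 1210, 671, 67 and 30 bases from the GENCODE starts given above. The Jund window thus lies well upstream of the printed start, and the Fosl2 window lies inside the printed gene. The motifs were partly chosen after the sequences were seen, and a match is a description only.

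Jun and Fos were higher after icv FGF1 on Day 1 in Astro nuclei, and Jun in Tany nuclei. In the edgeR quasi-likelihood test on UMIs summed per mouse and type, 7 of 93 pairs of gene and type had enough UMIs to enter, and 3 were called at a Benjamini-Hochberg false discovery rate (FDR) below 0.05, all higher. All 3 called pairs could enter only through the FGF1 mice. Jun in Astro and Tany had at most 2 UMIs in any vehicle mouse. Fos in Astro, at 9.14 to 24.9 CPM in vehicle mice, was also too low there to enter. With all nuclei thinned to the same depth, only Jun in Astro entered, and it was called (log2 FC 5.02, edgeR FDR 0.0255). Over all genes and types, 0.653% of tests were called higher. In Astro, where 2 members were called, the background was 1.39%, and in Tany, with 1 member called, it was 5.38%. The 4 pairs not called were all in nuclei without a mapped type (unmap), with log2 fold changes (log2 FC) of 0.30 for Fos, 1.00 for Fosl2, 1.23 for Jun and 0.91 for Jund. The p-values measure the spread between mice.

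Jun, which can form AP-1 without Fos, had the largest of these changes. In Astro nuclei, FGF1 mice 1, 2 and 3 had 189, 36 and 9 Jun UMIs (158.2, 90.1 and 54.7 CPM), and vehicle mice 1, 2 and 3 had 2, 1 and 0 (9.14, 1.66 and 0 CPM). The groups did not overlap, and the lowest FGF1 mouse was several times above the highest vehicle mouse. The log2 FC was 5.01 (SE 0.81, edgeR FDR 0.0122). The call was lost on leaving out vehicle mouse 1 (FDR 0.0800) or vehicle mouse 2 (FDR 0.134), with a log2 FC of 4.30 to 6.18 over the 6 fits that left out 1 mouse. In Tany nuclei, Jun had 84, 11 and 8 UMIs (210.7, 73.2 and 100.8 CPM) in FGF1 mice and 0, 1 and 1 (0, 7.13 and 14.0 CPM) in vehicle mice. Here too every FGF1 mouse was above every vehicle mouse, with a log2 FC of 4.54 (SE 0.82, edgeR FDR 0.00449), and without vehicle mouse 1 the FDR was 0.0565.

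Fos, the immediate early partner of Jun, rose in Astro nuclei. FGF1 mice had 139, 37 and 17 Fos UMIs in Astro (116.4, 92.6 and 103.4 CPM), and vehicle mice had 2, 15 and 4 (9.14, 24.9 and 24.7 CPM). The 3 FGF1 mice lay close together and well above the vehicle mice, with a log2 FC of 2.41 (SE 0.49, edgeR FDR 0.0325). The call held in 1 of the 6 fits that left out a mouse, that without FGF1 mouse 1 (FDR 0.0404), and was lost with the batch recorded in the metadata as a block (FDR 0.125), although each of the 3 batches holds 1 mouse of each group and the log2 FC was 2.47. In Tany nuclei Fos had 28, 9 and 4 UMIs (70.2, 59.9 and 50.4 CPM) after FGF1 against 0, 1 and 1 (0, 7.13 and 14.0 CPM). These counts were too low for the main test. As totals of the groups the ratio was 11.8 (95% exact interval 3.05 to 100.3, counting error only), and without the filter on low counts the log2 FC was 3.42 (FDR 0.00390).

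**Figure D1:**
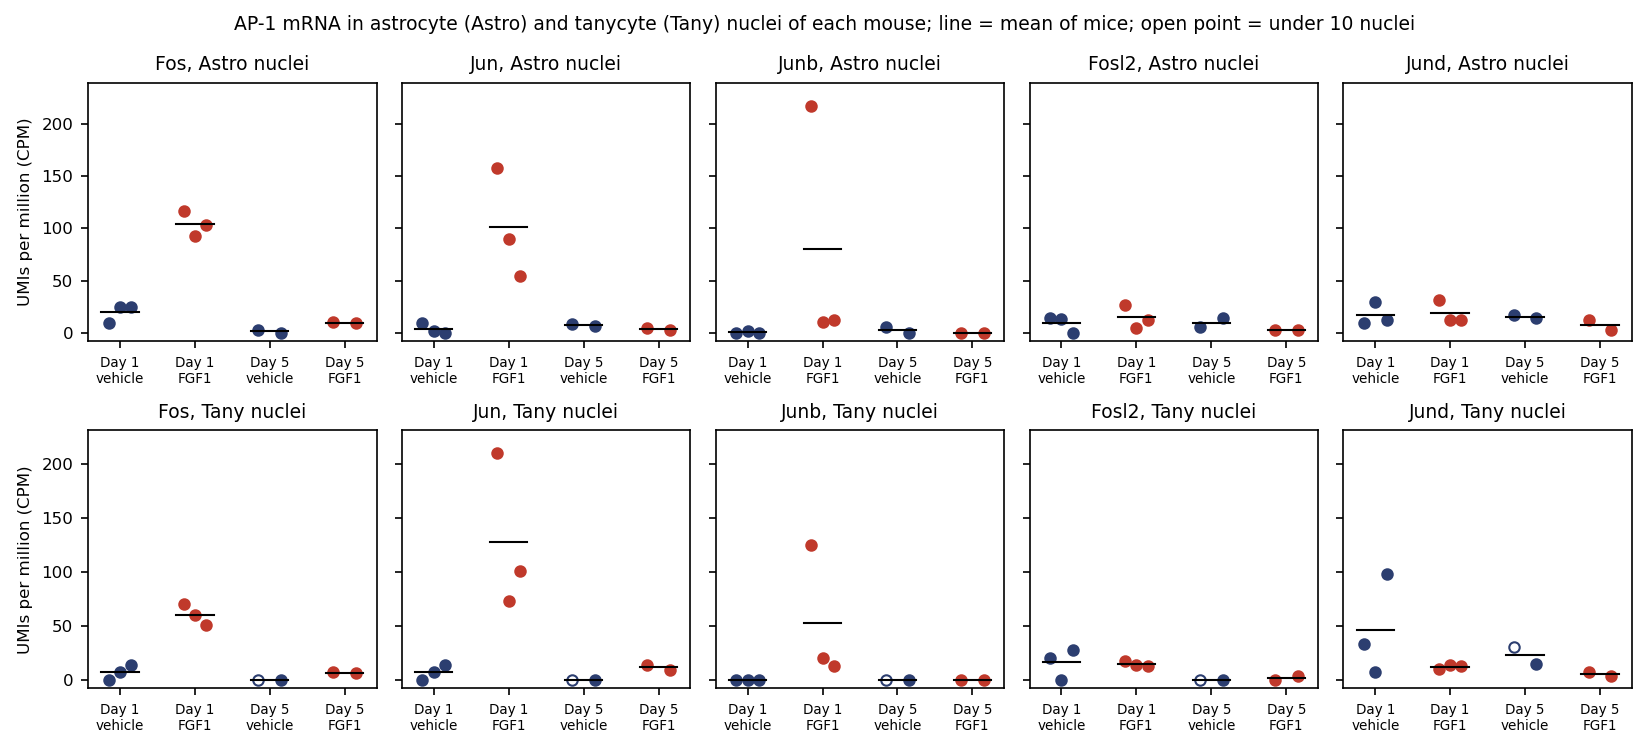
CPM in Astro (upper row) and Tany nuclei (lower row) for Fos, Jun, Junb, Fosl2 and Jund, with 1 point per mouse, vehicle in blue and FGF1 in red, on Day 1 and Day 5, a line at the mean of the mice and open points for mice with fewer than 10 nuclei. On Day 1 the FGF1 mice stood above the vehicle mice for Fos (92.6 to 116.4 against 9.14 to 24.9 CPM in Astro) and Jun, 1 FGF1 mouse held most of the Junb, and Jund and Fosl2 overlapped.

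Further types had few UMIs. Ependymal Jun had 10, 3 and 9 UMIs after FGF1 (153.1, 36.7 and 161.5 CPM) and 0, 0 and 1 in vehicle mice (0, 0 and 14.3 CPM). The pooled ratio was 21.3 (3.44 to 877.2), and the pair did not pass the filter, but was called without it (log2 FC 3.98, FDR 0.00308) and by DESeq2 (4.34, FDR 0.0423). Fos in COP had 5, 3 and 3 UMIs against 0 in each vehicle mouse, which is at least 3.82-fold higher over the floor of 3 UMIs over the group, and was not called without the filter (FDR 0.185). Ependymal Fos, at 3, 1 and 4 UMIs against 3, 0 and 6, showed no such separation. Without the filter 7 pairs were called in all (background 0.37% of tests higher). They were Fos and Jun in Astro, Fos, Jun and Junb in Tany, Jun in Epend, and Junb in the neuronal type n29.Nr5a1/Adcyap1 (log2 FC 4.47, FDR 0.000902), where FGF1 mouse 1 held 43 Junb UMIs.

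Jund, the member expressed in resting cells, did not follow Jun in Astro and Tany. Its counts in Astro were 37, 5 and 2 UMIs (31.0, 12.5 and 12.2 CPM) after FGF1 and 2, 18 and 2 (9.14, 29.9 and 12.4 CPM) in vehicle mice, so the groups overlapped, with a pooled ratio of 1.12. In Tany it had 4, 2 and 1 UMIs (10.0, 13.3 and 12.6 CPM) against 5, 1 and 7 (33.6, 7.13 and 98.1 CPM). The pooled ratio of 0.309 (0.104 to 0.833) rested largely on the last vehicle mouse, and without the low-count filter the log2 FC was -1.57 (FDR 0.407). Fosl2, a Fos-family member that lacks a strong activation domain, had 32, 2 and 2 UMIs in Astro against 3, 8 and 0, a ratio of 1.83, and its groups overlapped too. Fosb had no UMI in Astro in any group, and 2 in Tany of FGF1 mouse 1.

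Junb, a Jun protein that is itself an immediate early gene, was high in 1 library. FGF1 mouse 1 had 738 Junb UMIs of 12612245 in the whole library (58.5 CPM), and the other 5 Day 1 mice had 6 to 26 (1.46 to 4.33 CPM). The excess was not limited to 1 type: in 26 of 29 types, and in 18 of 21 neuronal or unmapped ones, this mouse was above the other 5 pooled. Its neurons, with unmapped nuclei, held 346 Junb UMIs at 35.6 CPM against 1.31 to 4.12 CPM in the other mice, and its glia and vessels held 375 at 143.5 CPM against 2.14 to 9.13 CPM. In Astro the counts were 260, 4 and 2 UMIs (217.7, 10.0 and 12.2 CPM) after FGF1 and 0, 1 and 0 in vehicle mice. FGF1 mice 2 and 3 were thus also above the vehicle mice, but by 4 and 2 UMIs. In the fit without the low-count filter, Astro Junb had a log2 FC of 6.40 (SE 2.35, FDR 0.634). Tany had 50, 3 and 1 Junb UMIs (125.4, 20.0 and 12.6 CPM) against none in vehicle mice, at least 10.3-fold higher over the group floor. FGF1 mouse 1 gave most of these UMIs.

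The same mouse also led for Jun and, less so, for Fos. Whole libraries held 435, 100 and 40 Jun UMIs in FGF1 mice 1, 2 and 3, and 13, 30 and 11 in vehicle mice. Whole-library Fos was 283, 119 and 50 UMIs against 23, 97 and 19. These counts are not scaled to depth, which ran from 3529889 UMIs in FGF1 mouse 3 to 12612245 UMIs in FGF1 mouse 1. In neurons with unmapped nuclei, Jun was at 12.0, 5.70 and 3.35 CPM after FGF1 and 1.45, 3.09 and 2.94 CPM in vehicle mice, and Fos at 9.97, 7.20 and 5.21 against 3.88, 10.6 and 2.61 CPM, so neuronal Fos overlapped. Unlike Junb, Astro Jun and Fos calls did not need FGF1 mouse 1: without it the log2 FC was 4.30 (FDR 0.0231) for Jun and 2.12 (FDR 0.0404) for Fos in Astro, and 3.66 (FDR 0.0439) for Jun in Tany, all by edgeR.

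**Figure D2:**
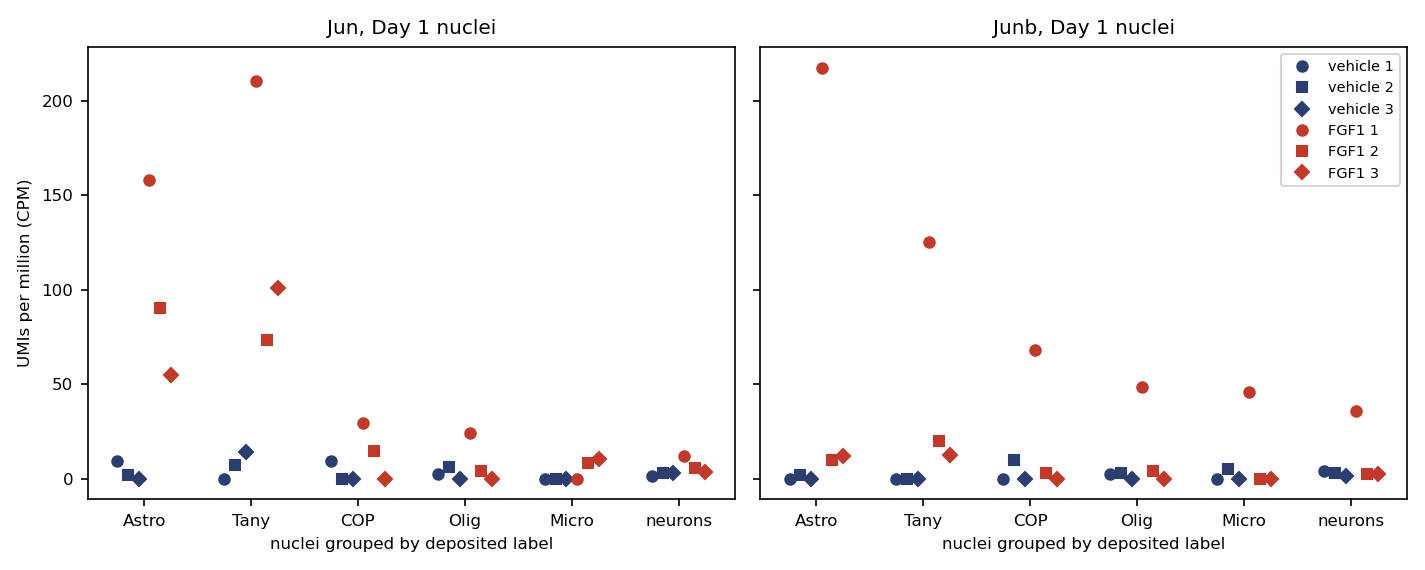
CPM of Jun and Junb in 5 glial types and in neurons (with unmapped nuclei) for each of the 6 Day 1 mice, FGF1 in red and vehicle in blue. FGF1 mouse 1 stood above every other mouse for Junb in all sets shown (217.7 CPM in Astro), whereas Jun in Astro and Tany was above the vehicle mice in all 3 FGF1 mice.

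On Day 5 no member was called in nuclei. Of 49 pairs only Fos in unmapped nuclei passed the low-count filter, with a log2 FC of 1.76 (SE 0.63, p 0.0173, edgeR FDR 0.450), against 0.288% of all tests called in either direction. With no filter 0 of 49 pairs were called and 4 had an unadjusted p below 0.05, and DESeq2 called 0. Astro Fos had 4 and 9 UMIs (9.85 and 9.20 CPM) in the FGF1 mice and 2 and 0 (2.86 and 0 CPM) in the vehicle mice. The groups did not overlap, and the FGF1 mice lay within the range of the Day 1 vehicle mice. Pooled Astro counts were 5 against 7 for Jun, 0 against 4 for Junb, 4 against 6 for Fosl2 and 8 against 14 for Jund, the last a ratio of 0.348 (0.127 to 0.890, counting error only), with Fosb at 0.

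The change of the FGF1 effect from Day 1 to Day 5 was tested as an interaction. No member of 8 pairs was called, where 0.00784% of all tests were. Astro Jun came closest, with an effect larger on Day 1 by 6.23 on the log2 scale (SE 1.29, p 0.000276, edgeR FDR 0.214), and 1 pair had an unadjusted p below 0.05. Without the low-count filter the difference was called for Astro Jun (6.28, FDR 0.000155) and Astro Junb (10.69, FDR 1.79e-05), the latter resting on FGF1 mouse 1. Day 1 and Day 5 nuclei came from different mice, and the day and its set of libraries cannot be told apart.

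The assays gave levels of AP-1 that were far apart. In vehicle mice on Day 5, 19 of 21 pairs tested in Astro, COP, Micro and Olig were higher in whole cells (FDR below 0.05), against 27.5% of all tests, where the type COP of the nuclei was set against OPC-like and COP-like cells together. For 9 of the 21, among them Fosb in each type, the nuclei held no UMI, so the pair entered through the whole cells and its direction was fixed by entering. The 7 pairs with 1 to 3 UMIs in nuclei also entered only with the counts of whole cells. This favoured a higher call, and 6 of them were called. The other 5 pairs, with 4 to 14 UMIs in nuclei, were also too low there to enter without the whole cells. Of these 4 were called. The median log2 ratio of pooled levels over the 21 pairs, with those 9 at their lower bound, was 4.46, and the median fitted log2 difference of all genes was 0.05. In Astro, Fos was at 904.0 to 2199 CPM in the 6 whole-cell mice and at 2.86 and 0 CPM in the nuclei of 2 mice, a pooled ratio of 685 (190 to 5658, log2 difference 9.62, SE 0.75, edgeR FDR 4e-08). That ratio rests on 2 Fos UMIs in nuclei, fewer than the 3 set for a group at 0, so its size is poorly known. Jun was at 126.0 to 276.9 against 8.58 and 6.91 CPM, a ratio of 25.1 (12.2 to 62.6). Every whole-cell mouse was above both nuclei mice for both genes.

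The size of the gap differed between members. In Astro it was 22.0-fold (8.57 to 81.0) for Junb, 3.26-fold (1.93 to 6.01) for Jund and at least 27.9-fold for Fosb, which had no UMI in nuclei. Fosl2 was not higher in cells in Astro (3.43 against 7.11 CPM, ratio 0.483, 0.200 to 1.41, edgeR FDR 0.476). In other types Fosl2 was not tested between assays in vehicle mice. In Micro, Fosl2 was at 0 to 45.4 CPM in vehicle cells against 0 UMIs in nuclei. In Tany of Day 5 FGF1 mice it was at 5.93 to 38.4 CPM in cells against 0 and 2.99 CPM in nuclei, which held 1 UMI. Whether the gap of Fosl2 differs between types was not tested. The other pair not called was Jund in COP (log2 difference 3.62, FDR 0.112). Micro, the resident macrophages of brain, had the highest whole-cell levels among the types compared between assays in vehicle mice. Fos was at 1837 to 3149 and Jun at 959.8 to 1911 CPM in cells against 0 UMIs in nuclei, at least 257.3-fold and 137.8-fold higher over the group floor. Junb in Micro was at 960 CPM, against 1 UMI in nuclei. In Olig, the myelinating cells, Fos was at 336.2 CPM in cells and had 1 UMI in nuclei, and Jun was at 113.2 CPM against 5 UMIs (6.04 CPM). The nuclei levels of these 3 pairs were within what was read as background, so no fold is given for them.

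Astro Fos in whole cells of vehicle mice was also above that of Day 1 nuclei after FGF1, which reached 116.4 CPM. The same held for Fosb, with no UMI in those nuclei against 42.3 to 147.9 CPM. Day 1 nuclei after FGF1 overlapped the whole cells for Jun (54.7 to 158.2 against 126.0 to 276.9 CPM), Junb (10.0 to 217.7 against 46.9 to 216.7 CPM) and Jund (12.2 to 31.0 against 29.5 to 96.5 CPM), and Fosl2 was at 5.01 to 26.8 against 1.88 to 6.96 CPM. In Day 5 FGF1 mice, pooled Tany Fos was at 2147 against 6.25 CPM in whole cells and nuclei (ratio 343.4, 117.5 to 1665), and the ratio of Tany Jun was 29.6 (12.7 to 91.2). Nuclei came from frozen tissue and without the RNA of the cytoplasm, and doublets were removed from whole cells only. Dissociation, dissection, intron counting, cohort, supplier and chow also differed between the assays. None of these differences can be told apart. The FGF1 effect itself was compared between assays for 22 pairs in 4 types on Day 5: 0 were called, 0 had an unadjusted p below 0.05, and 0.635% of all tests were called. Of the 22, 6 had no UMI in the nuclei of either group and 13 had at most 3 in both together, so these nuclei could hardly show a difference.

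**Figure D3:**
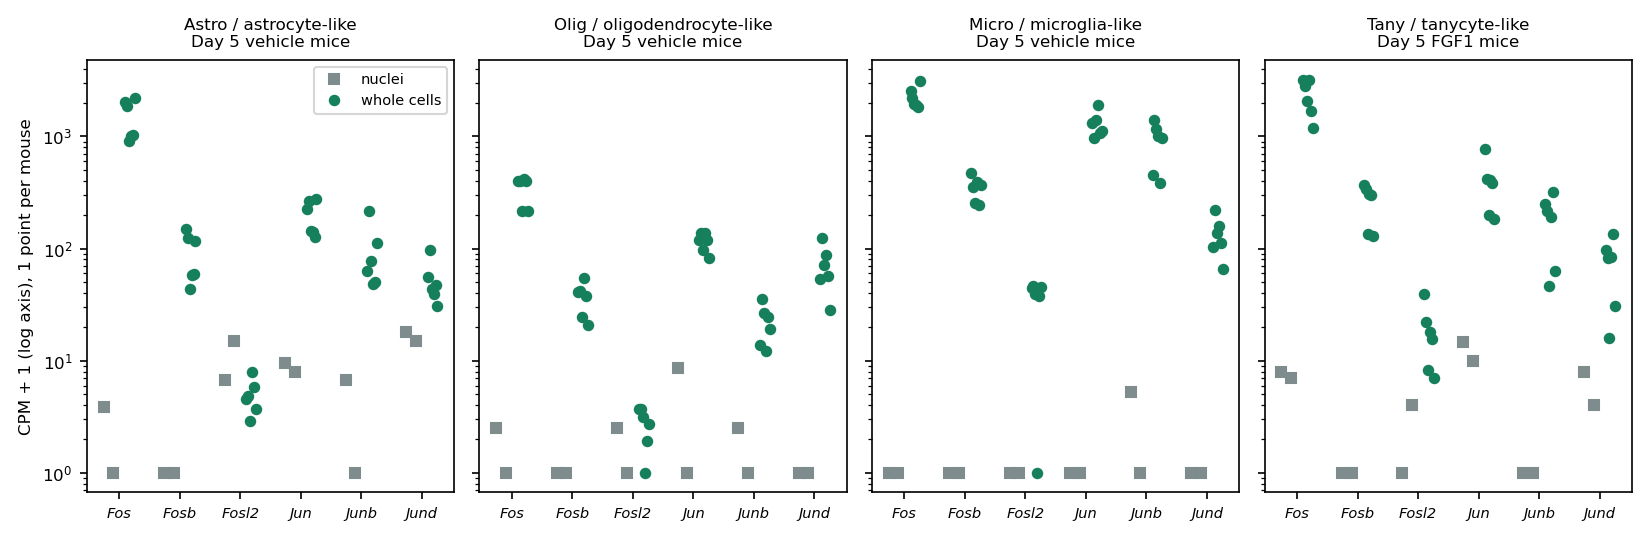
CPM plus 1, on a log axis, of the 6 genes in nuclei (squares) and whole cells (circles), with 1 point per mouse, for vehicle mice of Day 5 in Astro, Olig and Micro and FGF1 mice of Day 5 in Tany. Whole cells were above nuclei for Fos, Jun, Junb, Fosb and Jund in Astro (1624 against 2.37 CPM pooled for Fos), whereas Fosl2 overlapped there.

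Whole-cell clusters were named by markers as "like" a type, and Fos, Jun and Junb were highest in microglia-like, endothelial-like and VLMC-like cells. Over 11 such types in vehicle mice, mean Fos was 2611 ± 675 CPM (SD, n = 6) in endothelial-like, 2264 ± 505 in microglia-like, 2841 ± 1909 (n = 4) in VLMC-like (vascular leptomeningeal, the fibroblasts of the meninges) and 1507 ± 590 in astrocyte-like cells, down to 633 ± 151 in oligodendrocyte precursor (OPC)-like, 341 ± 97.7 in oligodendrocyte-like and 168 ± 97.7 in COP-like cells. Jun was highest in microglia-like (1293 ± 340 CPM) and endothelial-like cells (1101 ± 190) and lowest in oligodendrocyte-like cells (114.4 ± 22.4). Junb ran from 890.6 ± 397.7 CPM in microglia-like to 10.2 ± 11.9 in COP-like cells. Endothelial-like cluster 3 passed 6 of 6 endothelial and also 5 of 5 pericyte markers. Microglia-like cells were led by Ccl4, Il1a and Tnf, genes of activated microglia.

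The remaining members had other leaders. Jund was highest in ependymal-like cells (203.8 ± 91.6 CPM) and lowest in COP-like cells (13.2 ± 21.9). Fosb and Fosl2 led in VLMC-like cells at 1062 ± 796 and 86.3 ± 38.1 CPM (n = 4), and were lowest in COP-like cells at 33.8 ± 38.4 and 0 CPM. Vehicle mice had only 16 to 51 COP-like cells each, with 26332 to 109276 UMIs. The low ranks of Fosb, Fosl2, Junb and Jund there rest on few UMIs and cannot place COP-like cells below other low types. Neighbours in these orders were compared within mice by an exact two-sided sign-flip permutation test, whose smallest p is 0.03125 with 6 mice and 0.125 with 4, the number with at least 10 VLMC-like or macrophage-like cells. None of the 10 neighbouring pairs of any gene passed after adjustment, which with so few mice would need most steps of a gene to sit at the smallest p, so this says little of single steps. Before adjustment 3 steps of Fosb, 1 each of Fos, Jun, Junb and Jund and 0 of Fosl2 were below 0.05. For Fos this was OPC-like above oligodendrocyte-like, which did not overlap (504.5 to 882.0 against 214.7 to 418.2 CPM).

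**Figure D4:**
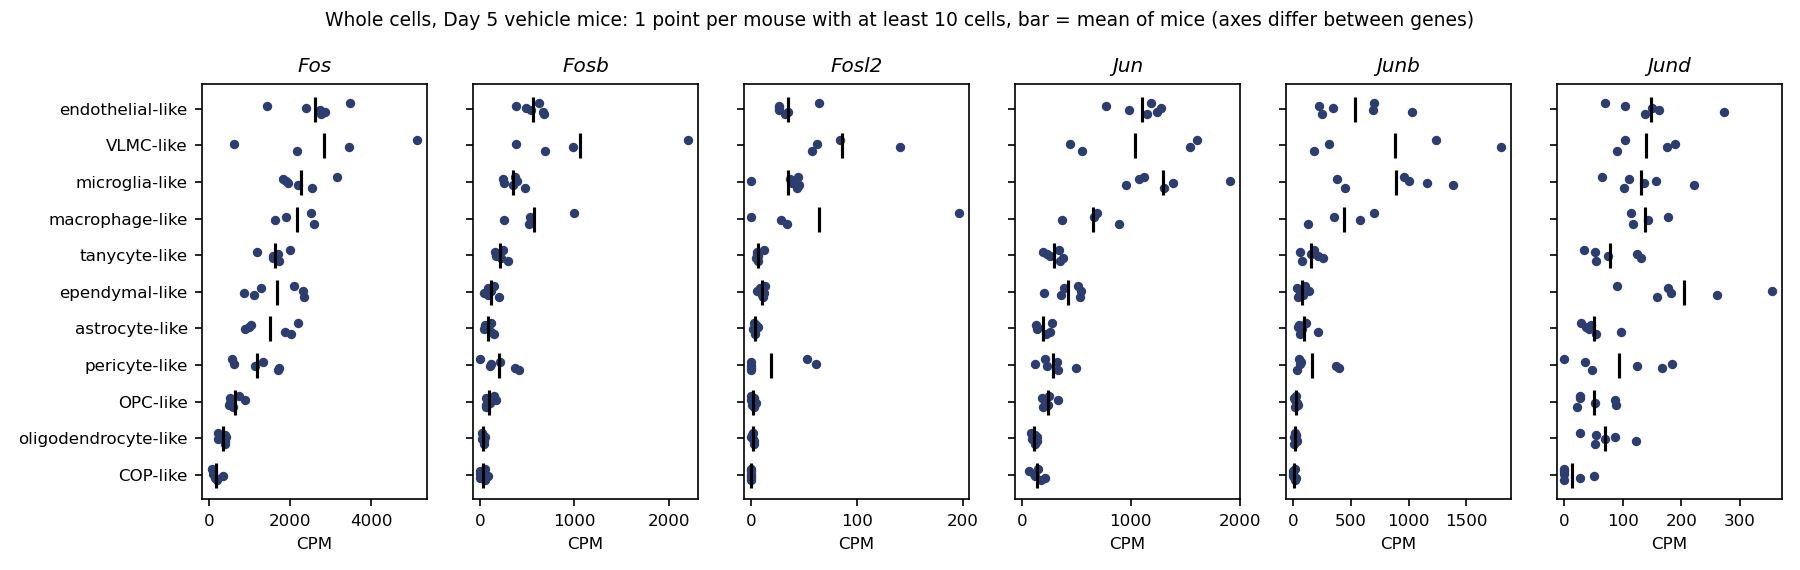
CPM of each of the 6 genes in 11 named whole-cell types, with 1 point per vehicle mouse of Day 5 and a bar at the mean, on axes that start at 0 and differ between genes. Fos was at 2611 CPM in endothelial-like and 168 CPM in COP-like cells, and Jund peaked in ependymal-like cells at 203.8 CPM.

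Across these 11 types the members followed each other, as a description over means of the same 6 mice. Pearson's r of mean log2 CPM was between 0.67 for Jun with Jund and 0.95 for Fosb with Junb. Among 6874 genes, those most like each member were Clic1 (0.96) and Tapbp (0.94) for Fos, H2-D1 (0.96) and Junb (0.95) for Fosb, Furin and B4galt1 (0.96 each) for Fosl2, Irf7 and B4galt1 (0.95 each) for Jun, Egr1 and Itpripl2 (0.98 each) for Junb, and Tnfaip8 (0.93) and Ncaph2 (0.92) for Jund.

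In whole cells on Day 5, few members differed between FGF1 and vehicle mice. Of 96 pairs over 16 clusters 67 entered the test, and 1 was called, against 1.75% of all tests in either direction and 1.2% of cluster 5 tests higher. The called pair was Fos, higher in OPC-like cluster 5. As a count, 1 call in 67 is near the share over all tests and does not set the members apart. Fos in cluster 5 was at 780 (lowest), 809 (median) and 1111 CPM (highest) in FGF1 mice and at 505, 572 and 890 CPM in vehicle mice. The groups overlapped, through vehicle mouse 27 at 890 CPM. The log2 FC was 0.47 (SE 0.13, edgeR FDR 0.0393), FGF1 was higher in 5 of 6 batches of 1 FGF1 and 1 vehicle mouse (-0.17 to 0.87 on the log2(CPM + 1) scale), and the call was lost on leaving out any of 8 of the 12 mice, at a log2 FC of 0.40 to 0.51. Over the 67 pairs the median log2 FC was -0.02, and 8 had an unadjusted p below 0.05.

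With the batch as a block, 4 pairs were called, against 2.27% of all tests. Beside Fos in cluster 5 (0.49, FDR 0.0112), these were lower after FGF1: Junb (-1.23, SE 0.23, FDR 0.000141) and Jund (-1.18, SE 0.29, FDR 0.00928) in astrocyte-like cluster 1, and Jund in ependymal-like cluster 6 (-1.01, SE 0.16, FDR 0.000116), all by edgeR. Without the block none of the 3 was called with all 12 mice (Junb -1.32, FDR 0.496; Jund -1.48, FDR 0.162 and -1.11, FDR 0.270), but Jund in cluster 1 was called without vehicle mouse 22 (-1.16, FDR 0.0325) or vehicle mouse 35 (-1.62, FDR 0.0121). Each was lower in the FGF1 mouse of all 6 batches. The batches hardly paired the mice, however. Deviations from the group mean correlated at -0.19 to 0.44 within a batch, with 2 of 6 pairs above 0.1. Only 1 of the FGF1 mice was closest to its own batch partner.

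Levels of the 3 pairs called lower with the block overlapped between groups. Junb in cluster 1 was at 18.6, 40.6 and 51.1 CPM (lowest, median, highest) after FGF1 and at 47.9, 69.9 and 253.6 CPM in vehicle mice. Jund in cluster 1 was at 14.1, 18.7 and 45.4 against 29.9, 44.2 and 100.3 CPM. Jund in cluster 6 was at 38.2, 92.3 and 184.2 against 90.2, 179.5 and 353.7 CPM. The highest vehicle value of both genes in cluster 1 was that of vehicle mouse 22. Fos in astrocyte-like cluster 4 was also lower in 6 of 6 batches (-1.25 to -0.05), at 237.6, 341.8 and 668.4 against 414.0, 448.6 and 760.9 CPM, and was not called with all 12 mice (log2 FC -0.48, FDR 0.698) but was without FGF1 mouse 10 (-0.72, edgeR FDR 0.0304). Jun in cluster 6 was called only without vehicle mouse 25 (-0.88, edgeR FDR 0.0495).

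Astrocyte-like cells held in a single type gave lower Fos, Fosb and Junb after FGF1, but the clusters behind them differed. Fos was at 255, 430 and 980 CPM (lowest, median, highest) in FGF1 mice against 904, 1456 and 2199 CPM (log2 FC -1.49, SE 0.40, edgeR FDR 0.0357), Fosb at 20.8, 32.0 and 50.4 against 42.3, 87.0 and 147.9 CPM (-1.43, FDR 0.0308), and Junb at 20.6, 29.4 and 54.9 against 46.9, 69.0 and 216.7 CPM (-1.59, FDR 0.0425). In this type 6.06% of all tests were lower. FGF1 mice had 3412 astrocyte-like cells in cluster 4 and 1531 in cluster 1, and vehicle mice had 697 and 7940. Neither cluster alone gave a called Fos change in the fit of all 12 mice, and how far the shift of cells between clusters enters the merged values was not tested.

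Tanycyte-like cells, the whole-cell counterpart of Tany, were not called for any member. In cluster 10, Fos was at 1122, 2442 and 4857 CPM after FGF1 against 655.8, 1423 and 2332 CPM (log2 FC 0.87, SE 0.47, FDR 0.483), and Jun at 118.2, 611.9 and 906.8 against 106.3, 373.3 and 512.7 CPM. Both overlapped, and Fos was higher in 4 of 6 batches. In endothelial-like cluster 3, Fos (0.35, FDR 0.403) and Fosl2 (0.46, FDR 0.378) were not called either.

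**Figure D5:**
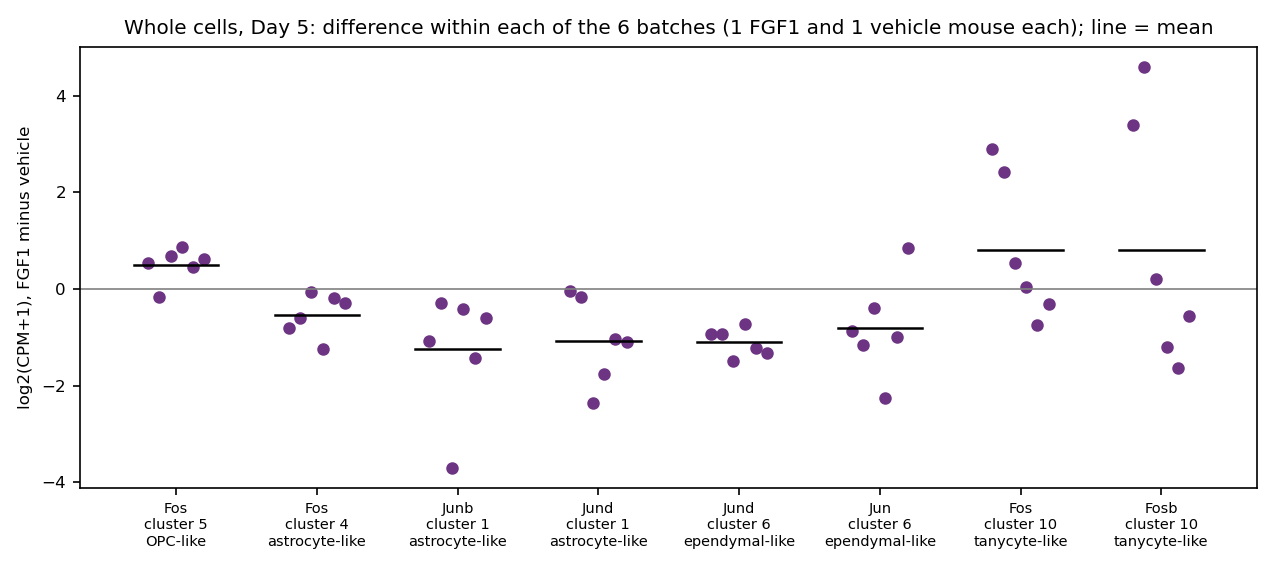
Difference of log2(CPM + 1), FGF1 minus vehicle mouse, within each of the 6 whole-cell batches for 8 pairs of gene and cluster, with a line at the mean of the batches. Junb and Jund in cluster 1 and Jund in cluster 6 were below 0 in all 6 batches, and Fos in cluster 5 was above 0 in 5 of them.

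Genes placed around AP-1 were counted in the same fits. Among textbook AP-1 targets on Day 1, 25 of 99 pairs of gene and type were higher and 0 lower (0.653% of all tests were higher), with a median log2 FC of 1.48 against 0.01 for all genes, and pairs could enter through the FGF1 mice alone. The lists were chosen with earlier results of these data known. The target list holds Gfap, Vim and Sprr1a, which the paper places in modules raised by FGF1 in Day 1 glia. Its counts are therefore a description and no independent evidence on AP-1. In Astro 7 of 13 were higher, led by Timp1, an inhibitor of matrix metalloproteinases (7.76, SE 0.91, FDR 0.00286, 1259 against 3 UMIs), Plaur, the urokinase receptor (5.93, SE 0.70, 139 against 1), and Cd44, a receptor for hyaluronan (4.61, SE 0.63, FDR 0.00518, 388 against 11). In Tany 7 of 13 were higher as well, where 5.38% of all tests were, against 1.39% in Astro. Other immediate early genes gave 3 of 10, among them Egr1 (4.46, SE 0.74, FDR 0.0136, 225 against 5 UMIs) and Klf6 (2.81, SE 0.47, FDR 0.0132, 203 against 16), both zinc finger factors, in Astro.

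Kinases and factors upstream of AP-1 (0 of 205 pairs, median -0.03) and other bZIP partners (0 of 33, median -0.13) had no calls on Day 1. Of all tests 0.653% were higher, so these counts are near what any genes would give. Heat shock genes, which mark protein stress, gave 4 of 88 with a median of 0.61, and the called small chaperone Hspb1 was in Astro (6.94, SE 0.79, FDR 0.00286, 548 against 2 UMIs). On Day 5 in nuclei 0 pairs were called in any of these lists (48 for targets, 8 for immediate early genes, 64 for heat shock genes, 160 for kinases and 26 for partners). Of all tests there 0.288% were called in either direction.

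In whole cells on Day 5, targets gave 12 higher and 1 lower of 104 pairs, heat shock genes 7 higher of 126, other immediate early genes 1 of 122, partners 1 lower of 55 and kinases 0 of 161, beside 1.75% of all tests called in either direction. OPC-like cluster 5, where Fos was called, also had higher Egr1 (1.06, SE 0.23, FDR 0.0313, medians 329.8 against 142.1 CPM), higher Vim, an intermediate filament gene (1.94, SE 0.21, FDR 1.23e-08), higher Ccnd1, which encodes cyclin D1 (0.55, FDR 0.00969), higher chaperones Hspa8 (0.46, FDR 0.0148) and Hsp90aa1 (0.45, FDR 0.0213), and lower Maf, a bZIP factor (-1.01, SE 0.25, FDR 0.0218). In this cluster 1 of 8 other immediate early genes, 2 of 8 heat shock genes and 2 of 7 targets were higher, beside 1.2% of all tests, and their part in the change of Fos was not tested.

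Between assays, pairs of the other lists could also enter through the whole cells alone. In vehicle mice on Day 5, 39 of 43 pairs of other immediate early genes were higher in whole cells, as were 27 of 35 for heat shock genes, 29 of 43 for targets with 5 lower, and 15 of 21 for partners with 4 lower, while upstream kinases had 14 higher and 30 lower of 79. Of all tests 27.5% were higher and 30.7% lower. These lists share their libraries with the members.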

How the data were processed

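Nuclei were prepared from frozen hypothalamic punches in cold lysis buffer, and whole cells by warm enzymatic digestion and trituration. Per the submitters' processing notes, Cell Ranger 1.2, Seurat and the builds GRCm38 (mm10) and GRCh38 were used. The authors deposited raw UMI counts per gene and cell, with a metadata table of cell types, clusters, batches and, for each cell, the percent of mitochondrial reads. Introns were counted in nuclei. The authors removed doublets with Scrublet from whole cells and not from nuclei, and no caller was run here.

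For each mouse, the counts of a type were added up (at least 10 cells per mouse, 2 mice per group) and tested with edgeR 4.0.16 (quasi-likelihood, TMM scaling, filterByExpr, Benjamini-Hochberg adjustment within a type), each fit over all genes. Standard errors are the absolute log2 fold change divided by the square root of F. DESeq2 1.42.0 was an alternative. Assays were compared over the 15712 genes found in both files. Pooled ratios carry 95% exact conditional intervals, which cover counting error only, and a group at 0 was set to 3 counts over the group. Order of levels used log2(CPM + 1). Clusters were named where at least 3 markers were found in at least 10% of cells and at least 2-fold above the rest. Clusters 18, 19 and 20, with 108, 95 and 67 cells, were left unnamed and untested, although cluster 18 passed 5 of 5 OPC (and 4 of 6 oligodendrocyte) and cluster 19 4 of 4 smooth muscle markers.

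The members, gene lists and tests were chosen with earlier results of these data known. All 6 members were counted in each type, but values are printed for a part of the types only. From each other list at most 3 genes called in the type with the most members called were named, by size of change. Likeness used genes with a mean of at least 50 CPM in at least 1 type. Python 3.11.15, numpy 2.4.6, pandas 2.3.3, scipy 1.17.1, matplotlib 3.10.9, R 4.3.3 and limma 3.58.1 were used, and the fits were tested on simulated data. Gene models were GENCODE and promoters RefSeq.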

Additional observations from a re-analysis of the deposited data

Results flagged for a closer look

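Among 16 groups of 6 whole-cell mice examined, 3 held a mouse far from the others. The groups were those of the gene and cluster pairs with an unadjusted edgeR p below 0.05. Chance gives about 1 in 20 for groups not chosen by their values, which need not hold here. In endothelial-like cluster 3, Fosl2 was at 63.9 CPM in vehicle mouse 35 (median of the vehicle mice 29.7). In astrocyte-like cluster 1, vehicle mouse 22 had the highest Junb, at 253.6 CPM (median 69.9), and the highest Jund, at 100.3 CPM (median 44.2).

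Nuclei that the authors' silhouette filter removed entered no test between groups, only the totals of whole libraries, and on Day 1 they too had more Fos, Jun and Junb in FGF1 mice. Pooled Fos was at 25.3 against 5.63 CPM (15 against 3 UMIs, ratio 4.49, 95% exact interval 1.27 to 24.2, counting error only). Pooled Jun was at 25.3 against 3.75 CPM (15 against 2 UMIs, ratio 6.73). Junb was at 28.6 against 1.88 CPM, with 17 UMIs against 1, and all 17 came from FGF1 mouse 1.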

How the results depend on the processing

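No result reversed. The tally of single pairs covers the called members, those between assays included, the other genes named by change, and Astro Jun between days. Over the alternatives in which they could be tested, 280 values kept direction and side of the threshold. In 44 the call was lost, and in 1 (Astro Jun between days) it was gained. Most of these pairs are not FGF1 changes of members, whose lost calls are given above. Pairs called only under an alternative are not in the tally. On Day 1, 3 member pairs were called by edgeR, against 7 without a low-count filter, 1 after thinning all nuclei to the same depth (Jun in Astro), and 0 to 3 when 1 mouse was left out (0 without vehicle mouse 1, 1 without vehicle mouse 2). In whole cells the count was 1, against 4 with the batch as a block, 4 with clusters merged by name, 4 without the filter, and 0 to 2 when 1 mouse was left out (2 without vehicle mouse 35, and Fos in cluster 4, Jund in cluster 1 or Jun in cluster 6 in place of Fos in cluster 5 without FGF1 mouse 10, vehicle mouse 22 or vehicle mouse 25, and 0 without FGF1 mouse 6, 7 or 21 or vehicle mouse 20 or 29). The difference between days had 0 calls, and 2 without the filter. The causes of these moves were not tested. The replicate numbers of Day 1 did not pair the mice (correlations of deviations -0.56 to 0.61, 1 of 3 above 0.1), and with the replicate number as a block 3 pairs were called. Nor did the Day 1 batches (-0.69 to 0.29, 1 of 3 above 0.1). The whole-cell batches did so only weakly (-0.19 to 0.44, 2 of 6 above 0.1). The Day 1 and Day 5 batch blocks in nuclei and the pseudocount of 10 CPM were chosen after seeing the data. Low UMI counts limited the nuclei, where 7 of 93 pairs on Day 1 and 1 of 49 on Day 5 could enter the test.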
